A study of Mus musculus with 7 samples.

Results

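Single T cells whose receptor library held 2 different productive T cell receptor alpha (TRA) chains and 1 productive beta (TRB) chain, called dual-TRA cells here, were set against cells with 1 productive chain of each kind, called single-TRA cells. Of 21365 cells in 4 groups, 1497 were dual-TRA and 12236 single-TRA, and the other cells lacked a chain or had 2 TRB chains. The groups were intraepithelial lymphocytes of the small intestine (IEL) and spleen T cells (SP) of male C57BL/6 mice 6 weeks old (young IEL, young SP) and 80 weeks old (old IEL, old SP). Per the labels and the study's methods, each group was 1 pool of cells from 3 mice, read here as the same mice for IEL and SP of an age, although a legend of the study gives another number of young mice, and all pools were marked with hashtag antibodies and sequenced as 5′ gene expression and TCR libraries. CD3+ cells were sorted, and in IEL the CD3+ cells were mixed in equal parts with CD3+CD4+ cells, so how many CD4+ cells the IEL pools held follows the sort. With 1 pool per group no test between groups was possible, and every interval below is an exact binomial (Clopper-Pearson) 95% interval that covers counting error only. The pools held 4348 to 5811 cells with a median of 5324 to 6533.5 unique molecular identifiers (UMIs, 1 per counted transcript) per cell, and 0 cell barcodes were shared between groups.

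A T cell carries an αβ receptor made of 1 TRA and 1 TRB chain, each built in the thymus by joining gene segments. TRB rearrangement is held to 1 allele (allelic exclusion), whereas the TRA locus rearranges on both alleles and goes on joining more 5′ V segments to more 3′ J segments until a receptor is selected, so a T cell can carry a pair of productive TRA chains. In IEL, induced cells express CD4 or CD8αβ and natural αβ cells express CD8αα, and natural cells are selected in the thymus by self ligands. The TRA locus lies on chromosome 14 of mm10 (GRCm38), where GENCODE M21 places 60 TRAJ segments from *Traj61* at the 5′ end to *Traj1* at the 3′ end, chr14:54155005-54218842, all upstream of the constant gene *Trac*, chr14:54220521-54224206.

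The nucleotide sequences that join V to J (CDR3) are shown for the clonotype with the most dual-TRA cells in old IEL, in young IEL and in old SP, since the 2 TRA chains of each use different V and J segments. A clonotype is a set of cells to which the authors gave the same receptor, numbered by size within a group. Each sequence runs 5′ to 3′; capitals mark bases that matched neither the named germline V segment from the 5′ end nor the germline J segment from the 3′ end.
old IEL clonotype 3, TRAV7D-2 to TRAJ50: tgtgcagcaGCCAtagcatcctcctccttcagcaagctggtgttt
old IEL clonotype 3, TRAV6-7-DV9 to TRAJ43: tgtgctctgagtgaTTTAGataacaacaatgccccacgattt
old IEL clonotype 3, TRBV19 to TRBJ2-5: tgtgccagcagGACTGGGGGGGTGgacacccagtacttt
young IEL clonotype 1, TRAV9D-4 to TRAJ22: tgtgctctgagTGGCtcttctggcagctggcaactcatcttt
young IEL clonotype 1, TRAV6-1 to TRAJ16: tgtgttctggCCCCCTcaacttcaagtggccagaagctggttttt
young IEL clonotype 1, TRBV13-3 to TRBJ2-5: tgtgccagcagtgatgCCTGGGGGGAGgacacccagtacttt
old SP clonotype 15, TRAV6-3 to TRAJ17: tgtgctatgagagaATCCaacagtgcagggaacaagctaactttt
old SP clonotype 15, TRAV13-1 to TRAJ27: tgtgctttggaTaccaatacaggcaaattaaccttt
old SP clonotype 15, TRBV19 to TRBJ2-4: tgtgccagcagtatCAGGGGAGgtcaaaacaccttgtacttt
In old IEL clonotype 3, *Traj50* (chr14:54167590-54167652) and *Traj43* (chr14:54174742-54174798) are the 12th and 19th segments from the 5′ end, and the junctions held 4 and 5 unmatched bases. In old SP clonotype 15, *Traj17* (chr14:54201775-54201837) and *Traj27* (chr14:54192303-54192361) are the 45th and 35th segments, with 4 and 1 unmatched bases. In young IEL clonotype 1, *Traj22* (chr14:54197248-54197307) and *Traj16* (chr14:54203134-54203194) are the 40th and 46th segments, with 4 and 6 unmatched bases.

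By cells, the young pools held larger shares of dual-TRA cells than the old pools. Of the dual-TRA and single-TRA cells together, 325 of 2155 were dual-TRA in young IEL, or 15.1% (13.6 to 16.7). In old IEL 272 of 3060 cells were, a share of 8.89% (7.9 to 9.95). In young SP, 552 of 4340 were dual-TRA, or 12.7% (11.7 to 13.7), and in old SP 348 of 4178, or 8.33% (7.51 to 9.21). When each clonotype counted once, as dual-TRA if more than 50% of its cells were, the shares came close together: 184 of 1286 in young IEL, or 14.3% (12.4 to 16.3), and in old IEL 65 of 528 clonotypes, a share of 12.3% (9.63 to 15.4). In young SP 550 of 4327 clonotypes were dual-TRA, or 12.7% (11.7 to 13.7), and in old SP 323 of 2826, or 11.4% (10.3 to 12.7). The intervals of young and old thus lay apart by cells and overlapped by clonotypes in both tissues.

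**Figure D1:**
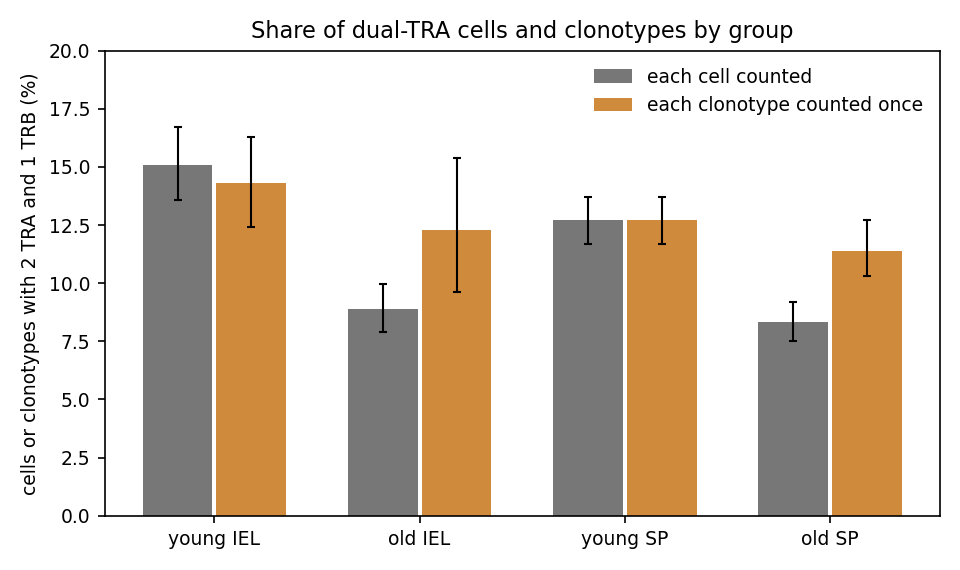
Share of dual-TRA cells among dual-TRA and single-TRA cells (grey bars) and of dual-TRA clonotypes with each clonotype counted once (orange bars), in percent, for the 4 groups; lines are exact binomial 95% intervals. By cells old IEL (8.89%) and old SP (8.33%) sit below young IEL (15.1%) and young SP (12.7%), whereas by clonotypes the 4 groups lie between 11.4% and 14.3%.

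The shares by cells of the old pools changed when a few expanded clonotypes were left out. The largest clonotype of old SP held 1121 cells, all single-TRA, of which 1115 had a *Cd8b1* UMI without *Cd4*. The 2 largest clonotypes of old IEL held 770 and 673 cells, mostly with *Cd4*, and again 0 dual-TRA cells. Without its largest clonotype old SP had 11.4% dual-TRA cells (10.3 to 12.6), and without its 2 largest clonotypes old IEL had 16.8% (15 to 18.7). In the other direction, old IEL clonotype 3 held 151 cells, 126 of them dual-TRA, which made up 46.3% of all dual-TRA cells of old IEL (40.3 to 52.4). Without this clonotype alone, the share in old IEL was 5.02% (4.25 to 5.88). Without the 3 largest clonotypes of each pool, which in old IEL include clonotype 3, the share was 9.96% in old IEL against 14.4% in young IEL. In SP it was then 11.5% in old against 12.7% in young, so the gap by cells remained in IEL and narrowed in SP. The largest clonotypes of the young pools were small, with 27 cells in young IEL, of which 13 were dual-TRA, and 3 cells in young SP. Dual-TRA clonotypes were found at all sizes: in young IEL they made up 14.8% of clonotypes of 1 cell, 11.5% of those of 2 to 4 cells and 16.2% of those of 5 or more, and in old IEL 11.7%, 12.9% and 15%, with overlapping intervals.

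By lineage, the shares by cells ranged most widely in old IEL, from CD4 to CD8αα cells. Lineage was read from UMIs of the coreceptor genes: CD4 cells had *Cd4* and no *Cd8b1*, CD8 cells *Cd8b1* and no *Cd4*, and CD8αα cells *Cd8a* and neither of the others. A CD4+ cell that also expresses CD8αα and has no *Cd4* UMI thus counts as CD8αα. In young IEL, 13.5% of CD4 cells (11.5 to 15.8), 19.8% of CD8 cells (15.3 to 24.9) and 15% of CD8αα cells (12.2 to 18.1) were dual-TRA. In old IEL these shares were 1.69% of 1601 CD4 cells (1.11 to 2.44), 10.3% of 243 CD8 cells (6.77 to 14.8) and 20.3% of 1025 CD8αα cells (17.9 to 22.9). In young SP, 13.4% of CD4 (11.7 to 15.2) and 12.5% of CD8 cells (10.9 to 14.2) were dual-TRA, against 11.1% of CD4 (9.17 to 13.2) and 6.05% of CD8 cells (5.14 to 7.07) in old SP. Counting each clonotype once within a lineage gave 9.76% for CD4 (5.68 to 15.4), 11.1% for CD8 (5.87 to 18.6) and 13% for CD8αα (9.15 to 17.8) in old IEL, and 10.9% for CD4 (8.93 to 13) and 11.6% for CD8 (9.83 to 13.5) in old SP. Of the 208 dual-TRA CD8αα cells of old IEL, 124 belonged to clonotype 3, and without it the share was 9.59% (7.72 to 11.7). The 2 largest clonotypes of old IEL, with 0 dual-TRA cells, gave 1045 of the CD4 and 330 of the CD8αα cells. Without them 4.86% of 556 CD4 cells (3.22 to 6.99) and 29.9% of 695 CD8αα cells (26.5 to 33.5) were dual-TRA. The 29.9% still holds clonotype 3 and the 9.59% still holds the 2 largest clonotypes. Leaving out all 3 was not counted by lineage. By cells, the CD4 share of old IEL was thus below that of young IEL, 13.5%, also without the 2 largest clonotypes. With each clonotype counted once, the CD4 share was 12.3% in young IEL (9.74 to 15.3) against 9.76% in old IEL, with overlapping intervals. The mean difference between CD4 and CD8 over the 4 pools was -2.23 percentage points by cells (exact two-sided sign-flip permutation test, p = 0.5). It was -1.5 percentage points by clonotypes (p = 0.375 in the same exact test, which with 4 pools cannot go below 0.125).

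The same counts were made within clusters of similar cells. Cells were clustered by gene expression for each tissue with both ages together, without TCR segment genes, and each cluster is given by its leading genes. In SP, the cluster led by *Ly6c1*, *Igfbp4* and *Cd4* had 13.3% dual-TRA cells in young (11.9 to 14.7) and 11.4% in old SP (9.2 to 14), and the cluster led by *Ccr9*, *Cd8a* and *Dapl1* 11.7% (9.95 to 13.5) and 11.6% (9.18 to 14.3). The memory CD8-like cluster (*Gzmm*, *Klrc1*, *Ccl5*, *Ly6c2*) had 15.1% in young (11.3 to 19.5) and 3.38% in old SP (2.58 to 4.34), but 14.8% and 10.6% (8.14 to 13.5) by clonotypes. The innate-like cluster (*Zbtb16*, *Cxcr6*, *Ckb*) had the lowest share of the 6 SP clusters, 3 of 75 cells in young SP, or 4% (0.833 to 11.2), and 0 of 23 in old SP (0 to 14.8). *Zbtb16* encodes the transcription factor of invariant natural killer T cells, most of which use the TRA segments TRAV11 and TRAJ18. In IEL, the cluster led by *Cd6*, *Cd5*, *Cd8b1* and *Cd40lg* had a *Cd4* UMI in more of its cells than a *Cd8b1* UMI. It had 15.2% dual-TRA cells in young (12.4 to 18.4) and 2.16% in old IEL (1.46 to 3.06). By clonotypes the shares were 12.9% (9.08 to 17.7) and 7.64% (4.01 to 13). The cluster led by *Klra5* and *Tyrobp* had 17.2% in young (14.2 to 20.5) and 16.2% in old IEL (12.3 to 20.8), and the cluster led by *Il17a*, *Il22* and *Ccr7* 13% (10.5 to 15.8) and 13.4% (8.78 to 19.3). The cluster led by *Plac8* and *Trdc* had 16.7% in young (11 to 23.8) and 32% in old IEL (25.3 to 39.4), and 20.4% (13.4 to 29) and 12.1% (4.99 to 23.3) by clonotypes.

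Finding a second TRA chain may depend on how deeply a cell was read, so depth was compared. The median was 6997 UMIs in dual-TRA and 6434 in single-TRA cells of young IEL, 6089 and 5384 in old IEL, 5800.5 and 5670 in young SP and 5522.5 and 6614.5 in old SP. With 1 cell per clonotype and class, dual-TRA cells had the higher median in 4 of 4 pools, by a mean log2 ratio of 0.0521 (exact two-sided sign-flip permutation test, p = 0.125, the smallest that 4 pools allow). In old SP the cells of the large single-TRA clonotype had a median of 10440 UMIs, and with 1 cell per clonotype and class the medians were 5373 in single-TRA and 5612 in dual-TRA cells. Quintiles of UMIs per cell were set on all 4 groups together, and 1 cell per clonotype and class was drawn within each quintile. An expanded clonotype could thus enter in more than 1 quintile. The dual-TRA share then went from 11.5% in the lowest (7.74 to 16.3) to 17.4% in the highest quintile (14 to 21.3) of young IEL. It was 10.6% (6.31 to 16.5) and 12.2% (6.99 to 19.3) in old IEL, 10.7% (8.72 to 13) and 13.9% (10.9 to 17.3) in young SP, and 11.3% (9.26 to 13.6) and 12.3% (9.07 to 16.1) in old SP. The highest quintile was above the lowest in 4 of 4 pools and the difference within a pool was not tested. By cells, the share in old SP was instead lowest in the highest quintile, 3.2% (2.34 to 4.28), the quintile of cells with at least 8277 UMIs.

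**Figure D2:**
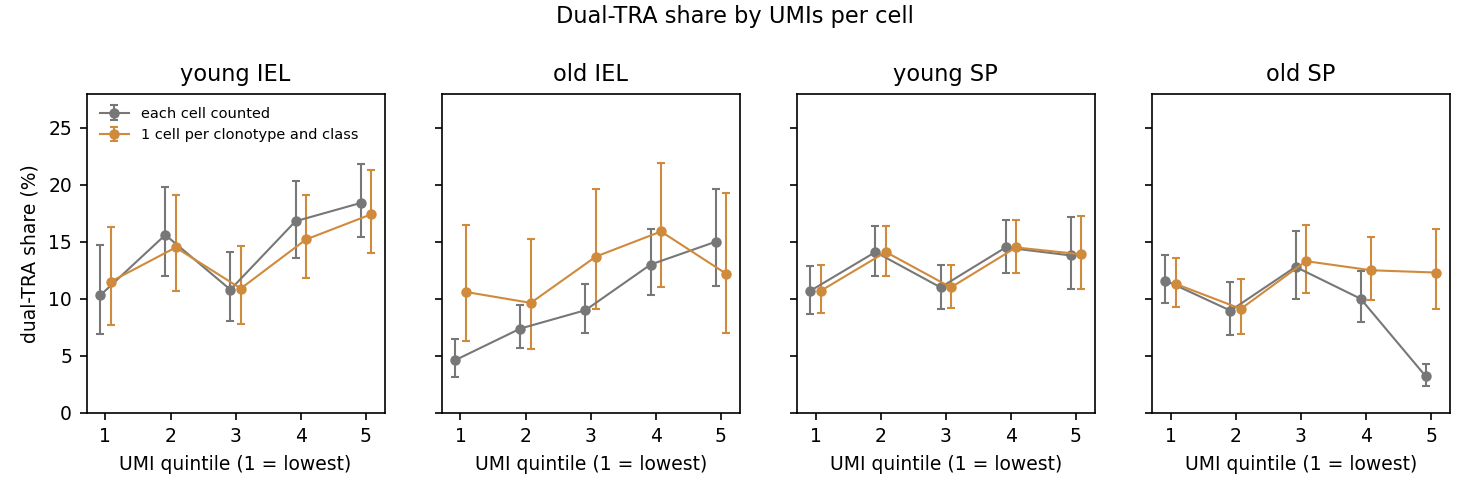
Share of dual-TRA cells, in percent, by quintile of total UMIs per cell (1 is the lowest), in the 4 groups; grey points count each cell and orange points 1 cell per clonotype and class within each quintile, with exact binomial 95% intervals. Counting each cell, old SP drops to 3.2% in the highest quintile and old IEL climbs to 15%, whereas with 1 cell per clonotype and class within a quintile every quintile lies between 9.12% and 17.4%.

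The chains of dual-TRA cells were well covered in the receptor library. The stronger TRA chain had a median of 9 UMIs in IEL and 7 in SP, and the weaker chain 5 in IEL and 4 in SP, against 5 to 7 for the chain of single-TRA cells. The weaker chain rested on 1 UMI in 5.17% of dual-TRA cells in old SP, 3.8% in young SP, 1.47% in old IEL and 2.46% in young IEL. The TRB chain, which the selection of dual-TRA cells counts but does not grade, had a median of 14 UMIs in both classes of young IEL, 13 and 12 in dual-TRA and single-TRA cells of old IEL, 13 in both of young SP and 12 and 11 in old SP, with 1 cell per clonotype and class. Over TRB UMIs, with 1 cell per clonotype and class, the dual-TRA share in old SP was 9.15% at 1 to 3 TRB UMIs (5.21 to 14.6) and 13.6% at 16 or more (11.4 to 16.1). It was 6.52% (1.37 to 17.9) and 16.2% (11.2 to 22.3) in old IEL, 9.03% (5.03 to 14.7) and 13.2% (11.6 to 14.9) in young SP, and 16.7% (8.62 to 27.9) and 15.2% (12.3 to 18.4) in young IEL, so it was higher at 16 or more in 3 of 4 pools. *Trac*, which is transcribed with either chain, stood at 4 per 10000 UMIs in dual-TRA and 3.52 in single-TRA cells of young IEL, 4.37 and 4.1 in old IEL, 2.73 and 2.13 in young SP and 2.62 and 2.08 in old SP. These *Trac* levels are a description, since the selection reads TRA.

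Signs of doublets, meaning 2 cells in 1 droplet, were more frequent in cells with 2 TRA and 2 TRB chains than in dual-TRA cells. *Cd4* and *Cd8b1* together were found in 5.8% of dual-TRA cells of young SP (4 to 8.09), 4.67% of single-TRA cells (4.02 to 5.39) and 30.4% of cells with 2 of each chain (22.2 to 39.7). In old SP the values were 3.74% (2 to 6.3), 1.98% (1.57 to 2.48) and 29.3% (18.1 to 42.7). In IEL they were 3.38% of dual-TRA (1.7 to 5.98) and 3.61% of single-TRA cells (2.8 to 4.57) in young and 1.1% (0.228 to 3.19) and 2.26% (1.74 to 2.88) in old. The median depth of cells with 2 of each chain was 7979 to 11794 UMIs, above that of dual-TRA cells in each pool. The doublet caller Scrublet marked 6 of 21365 cells and so gave no usable call, but its scores could be ranked. The top 5% of scores of each pool held 1.84% to 6.77% of dual-TRA cells, 2.51% to 4.75% of single-TRA cells and 20% to 46.6% of cells with 2 of each chain. In young IEL, young SP and old SP the share was higher in dual-TRA than in single-TRA cells (6.77%, 4.35% and 4.31% against 4.75%, 3.85% and 2.51%), with overlapping intervals. Without these cells and those with *Cd4* and *Cd8b1*, the dual-TRA share was 8.09% in old SP, 12.5% in young SP, 9.15% in old IEL and 14.9% in young IEL. All shares of this paragraph count each cell, so expanded clonotypes weigh in them and in their intervals. In old SP 1121 of 3830 single-TRA cells were 1 clonotype, and in old IEL 126 of 272 dual-TRA cells were clonotype 3. Doublet signs with each clonotype counted once were not computed.

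**Figure D3:**
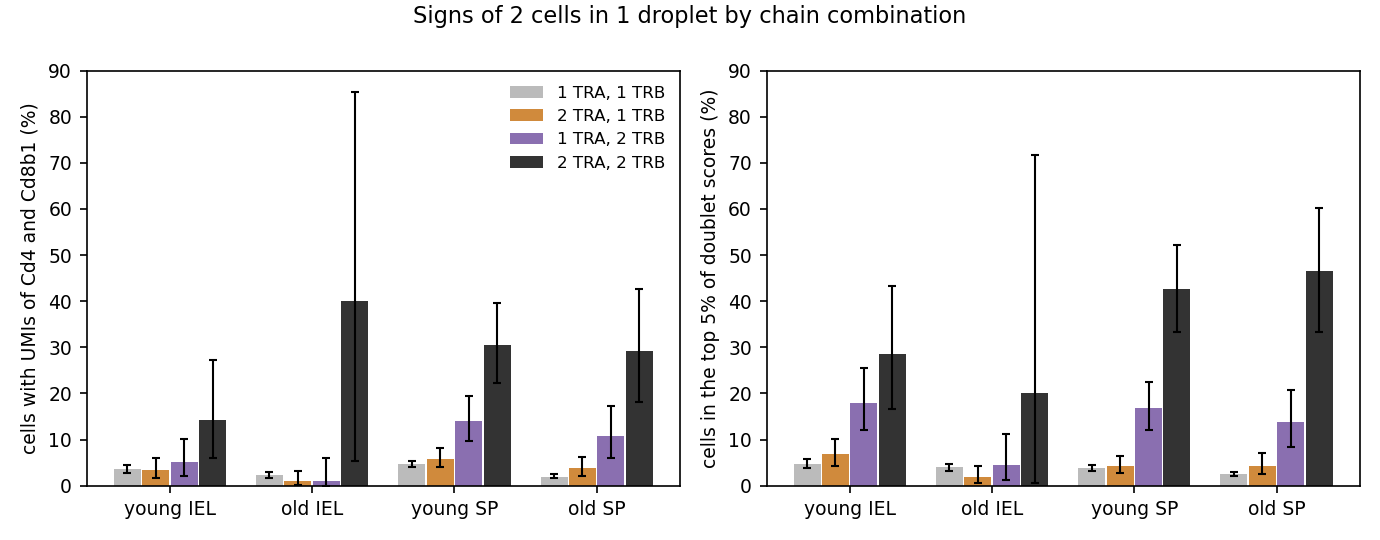
Share of cells with UMIs of both *Cd4* and *Cd8b1* (left) and of cells in the top 5% of doublet scores of their pool (right), in percent, by the number of productive TRA and TRB chains, with each cell counted; lines are exact binomial 95% intervals, wide in old IEL with 2 of each chain (5 cells). Dual-TRA cells (orange) lie near single-TRA cells (grey), and cells with 2 TRA and 2 TRB (black) lie at 14.3% to 40% (left) and 20% to 46.6% (right).

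Where clonotypes held 2 or more dual-TRA cells, nearly all of these cells carried the same TRA pair. The same 2 TRA with the same TRB were found in 2 or more cells for 50.8% of dual-TRA cells in young IEL, 82% in old IEL, 10.1% in old SP and 0.362% in young SP, where clonotypes were nearly all of 1 cell. In clonotypes with at least 3 dual-TRA or single-TRA cells of which 2 or more were dual-TRA, all 129 dual-TRA cells of 21 clonotypes in young IEL, all 211 of 16 in old IEL and all 17 of 6 in old SP carried the same pair within their clonotype. The deposited clonotypes were built from the TRA chains as well, so cells were also grouped by their TRB sequence alone, and 133 of 134 dual-TRA cells in young IEL, 211 of 211 in old IEL and 17 of 17 in old SP then shared their pair. In the 26, 17 and 7 deposited clonotypes of at least 3 cells with 1 or more dual-TRA cells, 1 chain of the pair was missing from 79 cells of young IEL, or 37.1% (30.6 to 44), 45 cells of old IEL, or 17.5% (13.1 to 22.7), and 8 cells of old SP, or 30.8% (14.3 to 51.8), which therefore count as single-TRA cells. The missing chain was the one with fewer UMIs in 32 of 75 such cells in young IEL, 26 of 43 in old IEL and 6 of 7 in old SP. In old IEL clonotype 3 the medians were 9 and 8 UMIs for the 2 TRA chains, 25 of 151 cells lacked a chain, and 149 were CD8αα by their coreceptor UMIs.

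Some TRA chains of dual-TRA cells were also found with another TRB chain in the same pool. This held for 15.7% of dual-TRA and 9.4% of single-TRA cells in young IEL, 50% and 6.03% in old IEL, 10.5% and 8.95% in young SP and 9.2% and 4.26% in old SP. The share was higher in dual-TRA cells, which have 2 chains that can match, in 4 of 4 pools. In old IEL 136 dual-TRA cells were concerned, and leaving out such cells of both classes lowered the dual-TRA share from 8.89% to 4.93%. The 126 dual-TRA cells of clonotype 3 carry the same pair, so they fall together inside or outside these 136 cells. Leaving out clonotype 3 alone gave 5.02%, and its part in the 50% was not counted apart.

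The 2 TRA chains of a cell used TRAJ segments that lay near each other in the locus. Segments were ranked from 1 at the 5′ end to 60 at the 3′ end, and 1 cell per clonotype was used. The mean distance between the chains of a cell was 9.37 segments in young IEL (SD 8.11, n = 199 cells), 7.54 in old IEL (SD 7.11, n = 71), 7.95 in young SP (SD 6.7, n = 551) and 7.54 in old SP (SD 6.22, n = 328). Between chains of different cells of the same pool, over all pairs, it was 15.3, 15.9, 15.9 and 16 segments. The within-cell mean was lower in 4 of 4 pools, with a mean difference of -7.68 segments (exact two-sided sign-flip permutation test, p = 0.125, the smallest that 4 pools allow). Both chains lay within 5 segments of each other in 39.7% of cells in young IEL (32.8 to 46.9), 46.5% in old IEL (34.5 to 58.7), 46.6% in young SP (42.4 to 50.9) and 45.7% in old SP (40.2 to 51.3), against 21.4% to 21.9% between cells. Spearman's rho between the TRAJ ranks of the 2 chains, each cell entering in both orders, was 0.556 in young and 0.729 in old IEL, and 0.717 in young and 0.744 in old SP, as a description. For TRAV segments rho was lower, 0.148 to 0.268.

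In cells with 2 TRA and 2 TRB chains the distances lay closer to those between cells. Their mean TRAJ distance was 15.9 segments in young IEL (SD 10.4, n = 49 cells), 14.1 in young SP (SD 10.5, n = 115) and 13.1 in old SP (SD 10.3, n = 58), against 15.2, 15.9 and 13.8 between cells, and rho was -0.0776, 0.16 and 0.016. These values count each cell, and with 1 cell per clonotype young IEL had 42 cells, a mean of 15.1 segments against 15.5 between cells and a rho of 0.0331, while the other pools had 1 such cell per clonotype. Old IEL had 5 such cells, with a mean of 9.8 segments against 15.3 between cells and a rho of 0.644. Among dual-TRA receptors, those found in 2 or more cells had a mean distance of 9.46 segments in young IEL, 7.77 in old IEL and 7.8 in old SP, close to the 9.35, 7.43 and 7.53 segments of receptors found in 1 cell.

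**Figure D4:**
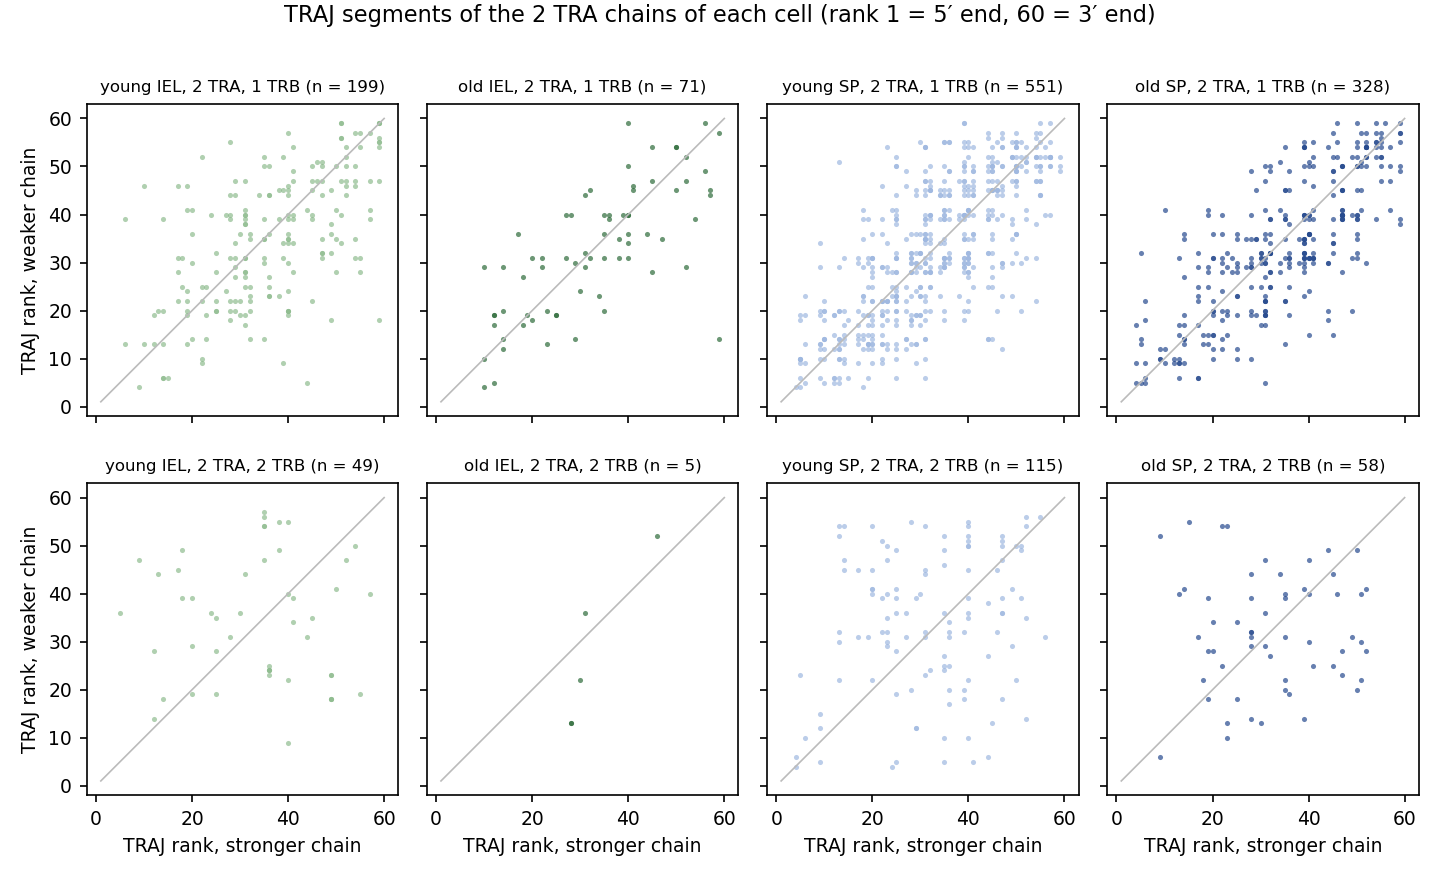
TRAJ rank of the weaker against the stronger TRA chain of each cell (by UMIs; rank 1 is the 5′ end of the locus and 60 the 3′ end), for dual-TRA cells with 1 cell per clonotype (top) and for each cell with 2 TRA and 2 TRB chains (bottom), in the 4 groups; the line marks equal rank. Points of dual-TRA cells gather along the line (rho 0.556 to 0.744), and points of cells with 2 of each chain spread more widely in young IEL, young SP and old SP (rho -0.0776 to 0.16), with 5 cells in old IEL.

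The chains of dual-TRA cells lay slightly further 3′ in the TRAJ cluster than those of single-TRA cells. The mean TRAJ rank was 35.3 and 32.1 in young IEL, 33 and 31.4 in old IEL, 32.9 and 32.1 in young SP and 34.1 and 31.7 in old SP, with SDs over chains of 13.3 to 14.6. The difference had the same sign in 4 of 4 pools, with a mean of 2 segments (exact two-sided sign-flip permutation test, p = 0.125, the smallest that 4 pools allow). The first 20 TRAJ segments were used by 17.3% of chains in dual-TRA cells (13.7 to 21.4) and 23.5% in single-TRA cells (21.1 to 26.1) of young IEL, and by 20.7% (17.7 to 24) and 26.5% (24.8 to 28.3) in old SP. These intervals count chains. The 2 chains of a dual-TRA cell have related TRAJ ranks, so the intervals of dual-TRA cells are too narrow. Only in old SP did the intervals lie apart. They overlapped in young IEL, old IEL (25.4% and 27%) and young SP (23.4% and 24.3%). The mean TRA CDR3 length differed by 0.175 nucleotides and the mean TRAV rank by -1.58 segments. The chain of invariant natural killer T cells, TRAV11 or TRAV11D joined to TRAJ18, was counted by cells, and dual-TRA cells have 2 chains that can match. It was found in 6 of 551 dual-TRA cells of young SP, or 1.09% (0.401 to 2.35), and 66 of 3777 single-TRA cells, or 1.75% (1.35 to 2.22). In young IEL it was found in 3 of 199, or 1.51% (0.312 to 4.34), and 17 of 1114, or 1.53% (0.891 to 2.43), and in old IEL in 0 of 71 and 0 of 470. In old SP it was found in 0 of 328 (0 to 1.12) and 27 of 2507, or 1.08% (0.711 to 1.56).

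In gene expression, few differences between dual-TRA and single-TRA cells were detected. Counts of 1 cell per clonotype and class were summed for each pool, and the sums were compared within pools over 10096 genes. A clonotype with cells of both classes gave 1 cell to each sum. Cells in which 1 of 2 TRA chains was missed are among the single-TRA cells. The effect of both on the differences was not tested. At an adjusted p under 0.05, 1 gene was called (0.0099% of genes tested), and 341 genes, or 3.38%, had an unadjusted p under 0.05. The fitted log2 fold changes of 95% of genes lay between -0.34 and 0.33. The called gene was *Xcl1* (ENSMUSG00000026573, chr1:164931644-164935527), which encodes the chemokine XCL1 that attracts cross-presenting dendritic cells. Its level, the UMIs of the gene in 10000 UMIs of the sum, was 2.02 per 10000 UMIs in dual-TRA and 2.89 in single-TRA cells of young IEL, 3.27 and 5.01 in old IEL, 0.162 and 0.755 in young SP and 0.526 and 0.555 in old SP, lower in dual-TRA cells in 4 of 4 pools and by little in old SP. The fitted log2 fold change was -0.76 (SE 0.13, edgeR adjusted p = 0.0468).

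The 10 cells with the most *Xcl1* UMIs held 51.3% to 84.9% of the UMIs of their class, except in single-TRA cells of old SP (13.3%, at most 17 UMIs in a cell), and the share of cells with a UMI was about the same in both classes. A UMI was found in 18.6% of dual-TRA (13.4 to 24.7) and 16.3% of single-TRA cells (14.2 to 18.6) in young IEL, 29.6% (19.3 to 41.6) and 29.6% (25.5 to 33.9) in old IEL, 5.63% (3.85 to 7.89) and 6.12% (5.37 to 6.93) in young SP and 13.7% (10.2 to 17.9) and 14% (12.6 to 15.4) in old SP. The 10 single-TRA cells with the most UMIs held 64.4% of the *Xcl1* UMIs of that class in young SP, 1 of them with 415 UMIs, whereas the highest dual-TRA cell there had 7. Without young SP the adjusted p of *Xcl1* was 0.0862 in edgeR, and DESeq2 called 0 genes, with 51 at an unadjusted p under 0.05.

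The genes with the same sign of difference in 4 of 4 pools are given as values with no call. Of 3946 genes with at least 20 UMIs in the dual-TRA sum of every pool, 510, or 12.9%, had the same sign in all pools (2 of the 16 possible sign patterns, or 12.5%, have 1 sign), 292 higher and 218 lower in dual-TRA cells. The largest fitted log2 fold changes among the higher ones were 0.55 for *Klra3* (SE 0.17), an inhibitory receptor of the Ly49 family, 0.38 for *Cdk6* (SE 0.11), a cell cycle kinase, 0.37 for *Noct* (SE 0.15), a circadian phosphatase, and 0.36 for *Lrrk1* (SE 0.12). *Afmid*, *Nudt19*, *Nr1d2*, *Klre1*, *Cir1* and *Dynlt3* followed with 0.23 to 0.31. Among the lower ones besides *Xcl1* were *Spryd3* (-0.31, SE 0.11), *Gngt2* (-0.28, SE 0.07), a G protein subunit, and *Chkb* (-0.25, SE 0.10), a choline kinase. *Vamp2*, *Itgav*, *Zcchc17*, *Cklf* and *Ppp1r15b* had values of -0.24 to -0.21.

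Lists of genes known for T cell states gave 0 called genes, where 1 of all 10096 genes tested (0.0099%) was called. At that share, 0 calls are no result about the lists. The median log2 fold change over all genes was -0.00, and list medians lay between -0.09 and 0.12. Of 19 genes known to be induced by or to tune TCR signalling, 14 were above and 5 below 0, with a median of 0.03. *Cd5*, a negative regulator whose level follows self-reactivity in the thymus, stood at 2.48 per 10000 UMIs in dual-TRA and 2.47 in single-TRA cells of young IEL, 2.03 and 2.72 in old IEL, 3.1 and 2.74 in young SP and 3.44 and 3.04 in old SP (log2 fold change 0.08, SE 0.05). *Cd69*, an early activation marker, had a log2 fold change of 0.03 (SE 0.04). Of 16 genes of the TCR complex, 8 were above and 8 below 0 with a median of -0.00, *Cd3e* and *Cd3g* at -0.00 and -0.01 (SE 0.03 for both). Of 13 naive genes 7 were above 0 (median 0.01, *Klf2* -0.00 and *Tcf7* 0.01), and of 21 memory and effector genes 4 were above 0 (median -0.08). In CD4 cells alone 11 of 7973 genes tested were called, with a dual-TRA sum of 17 cells in old IEL. Of the 11, *Ccl4* (-1.48), *Gzmk* (-0.69), *Gzmb* (-0.39), *Fcer1g* (0.62) and *Tyrobp* (0.58) belong to these lists or to that of exhaustion and age. Over all lineages none of these named genes was called, and *Ccl4*, a chemokine gene, was at -0.32 (edgeR adjusted p = 0.221). Among the memory and effector genes *Ccl5* had 0.04 (SE 0.04), the granzyme gene *Gzma* -0.08 (SE 0.03) and *Gzmb* -0.09 (SE 0.03).

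The remaining lists had similar values. Of 9 exhaustion and age genes 6 were above 0 (median 0.12), with *Fcer1g* at 0.13 (SE 0.06) and *Tox* at 0.12 (SE 0.05). Of 11 regulatory genes 3 were above 0 (median -0.04), with *Ikzf2*, which encodes Helios, at 0.13 (SE 0.05) and the checkpoint gene *Ctla4* at -0.08 (SE 0.06). For innate-like genes the median was -0.05 (3 of 9 above 0), for cycling genes 0.01 (5 of 8), for interferon genes -0.04 (2 of 9) and for genes of recombination and recent thymic emigrants -0.09 (1 of 3 tested, of 8 in the list). Markers of other cell types were low in both classes, and their part in the results was not tested. The 8 B cell markers summed to 0.969 to 3.51 per 10000 UMIs in dual-TRA and 1.66 to 3.31 in single-TRA cells over the pools, and the 5 myeloid markers to 0.833 to 1.85 and 0.875 to 1.86. *Ms4a1* for B cells and *Lyz2* and *Csf1r* for myeloid cells were at 0 in the dual-TRA sum of every pool. These sums hold fewer cells than the single-TRA sums, so a 0 says little. Other markers were detected: 4 of the 8 B cell markers in the dual-TRA sum of each IEL pool and 6 in each SP pool. In single-TRA sums 5 to 8 were detected. Of the 5 myeloid markers, 2 or 3 were detected in dual-TRA and 4 or 5 in single-TRA sums. The 5 epithelial markers summed to 0.0559 to 0.638 in dual-TRA and 0.0629 to 0.625 in single-TRA cells, and the 3 NK markers to 0.167 to 0.841 and 0.203 to 0.807. Red cell markers were at 0 in both classes. *Trdc* with *Trdv4*, the 2 of 5 listed γδ markers found by name, summed to 0.118 or less in dual-TRA and 0.135 or less in single-TRA cells. Constant genes of the γ chain, of which *Tcrg-C1* is in the data under that name, were not counted.

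**Figure D5:**
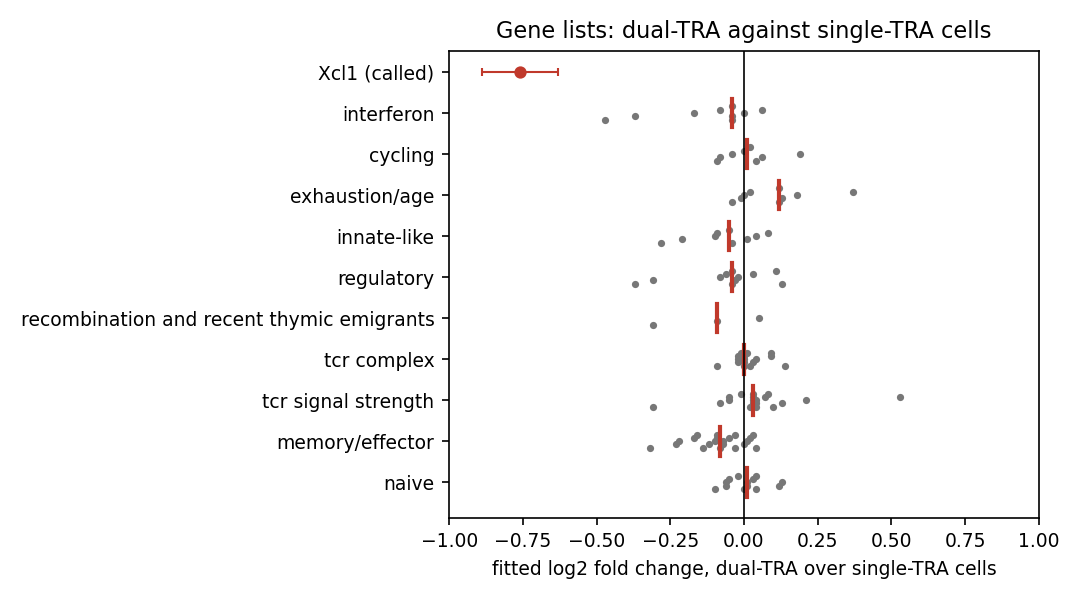
Fitted log2 fold change of dual-TRA over single-TRA cells (sums of 1 cell per clonotype and class, 4 pools) for the tested genes of 10 lists (grey points, red line at the list's median) and for *Xcl1* with its SE. List medians lie between -0.09 and 0.12, and *Xcl1* at -0.76 is the 1 called gene.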

How the data were processed

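The authors ran Cell Ranger 7.0.1 with mm10, as the submitters' processing notes list them, and deposited UMI counts per gene and cell and filtered TCR contigs with UMI counts for each group. The contigs were all productive, with at most 2 TRA and 2 TRB per cell. How hashtags were assigned and doublets removed is not given in the sources used here. Cells were used as deposited. Members, lists and tests were chosen with earlier results of these data known. Dual-TRA against single-TRA sums (1 cell per clonotype and class, seed 1) were tested with edgeR 4.0.16 (quasi-likelihood, TMM, filterByExpr, pool as a block, Benjamini-Hochberg over all genes), without TCR V, D and J segments and *Trac*. DESeq2 1.42.0 was an alternative. IEL and SP of an age are read as sharing mice, so the 4 pools are not fully independent, and sums carry cell sampling as well as pool differences. In simulated sums over 10067 genes, of which 200 were changed, log2 changes of 1 and 2 were recovered in 100% of cases, and 5.21% of calls were false. The changed genes were drawn from those with high counts in the dual-TRA sums, and the noise had a fixed dispersion. Recovery of smaller changes, of genes with low counts or of genes with UMIs held by few cells was not tested. Doublet scores came from Scrublet in scanpy 1.11.5. Clusters came from scanpy (2000 variable genes, 10 components, 15 neighbours, Leiden resolution 0.4 in IEL and 0.2 in SP). Named genes were those called or, since fewer than 10 were, the 10 highest and 10 lowest log2 fold changes with 1 sign in all pools, of which 1 is not reported here. CDR3 ends were matched to germline segments of GENCODE M21 in the GRCm38 genome.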

Additional observations from a re-analysis of the deposited data

Results flagged for a closer look

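The difference between CD4 and CD8 cells in the dual-TRA share ran in opposite directions in the tissues when each cell counted. CD4 minus CD8 was -6.24 percentage points in young IEL and -8.6 in old IEL, and 0.904 in young SP and 5 in old SP. This difference between IEL and SP was not tested, since each tissue has 1 pool per age. Counting each clonotype once gave -4.94, -1.36, 0.978 and -0.7 percentage points, so old SP no longer differed in sign from IEL. By cells, the intervals of CD4 and CD8 overlapped in young IEL and in young SP. Without its largest clonotype, all single-TRA, old SP had 11.1% dual-TRA cells among CD8 cells (9.44 to 12.9), against 11.1% among CD4 cells (9.17 to 13.2). The value of old SP by cells thus rests on 1 clonotype.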

How the results depend on the processing

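The shares of dual-TRA clonotypes and the agreement of TRA pairs kept within their intervals under the alternatives run. The mean TRAJ distances were held only to their SD over cells, a limit about as wide as the mean difference of -7.68 segments. With all cells and with contigs of at least 2 UMIs they were 9.34 and 9.23 segments in young IEL, 7.76 and 7.49 in old IEL, 7.96 and 7.96 in young SP and 7.58 and 7.52 in old SP. With each cell counted, the share of dual-TRA cells with both chains within 5 TRAJ segments was 22.4% in old IEL (17.6 to 27.9), against 23.9% between cells. Of these 272 cells, 126 are clonotype 3, whose segments rank 12th and 19th and so lie outside that limit. The mean distance with each cell counted in old IEL was 7.76 segments, against 15.5 between cells. By cells, leaving out the 3 largest clonotypes gave 9.96% in old IEL and 11.5% in old SP, a common depth distribution gave 9.31% in old SP, contigs of at least 3 UMIs gave 11.5% in young SP, and leaving out TRA chains found with another TRB gave 4.93% in old IEL. The CD4 share of old IEL was 5.6% when lineage was that of the cluster and 9.76% with each clonotype counted once, and the CD8 share of old SP was then 11.6%. Counting clonotypes once within a lineage, leaving out high doublet scores, leaving out the 2 largest clonotypes of old IEL by lineage, counting cells with 2 of each chain once per clonotype, limiting the agreement to clonotypes with 2 or more dual-TRA cells and leaving out 1 pool from the CD4 minus CD8 mean were chosen after seeing the data. No IEL cluster was of the CD8 class, so that mean was not run by cluster, and without 1 pool it lay between -4.65 and -0.112. The mean log2 depth ratio of 0.0178 moved between -0.0355 and 0.11 when 1 pool was left out. The count of called genes, 1, was 0 with DESeq2, 0 without a replicate block for the pool, 0 with all cells, 16 without a filter on low counts, 11 in CD4 cells, 2 in CD8 cells, 3 without high doublet scores and cells with *Cd4* and *Cd8b1*, 3 with contigs of at least 2 UMIs and 0 to 5 without 1 pool (0 without young SP, 2 without old IEL, 5 without old SP). *Xcl1* kept its sign in every fit and was called in 8 of 15, with log2 fold changes of -1.01 to -0.46. With single-TRA cells matched on lineage and depth, 1 other gene was called, *Il22*, and without called doublets and cells with *Cd4* and *Cd8b1* 1 other, *Il17a*. The 2 genes called in CD8 cells were *Cd74*, with a log2 fold change of -3.18 there and -0.36 over all lineages, and *Nr4a1*, an early gene of TCR signalling, with 0.72 and 0.07. The CD8 dual-TRA sums rest on 11 cells in old IEL and 27 in young IEL. In young IEL these dual-TRA cells had a median of 9310 UMIs, against 6618 in single-TRA cells. The causes were not tested. Depth limits the gene comparison most in old IEL, where the dual-TRA sum rests on 71 cells, 17 of them CD4 and 11 CD8 cells.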
